A study of Rattus norvegicus with 3 samples.

Results

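Fatty acid oxidation and lipid use was described with 10 genes in cultured ventricular myocytes of newborn rats: the acyl-CoA dehydrogenase genes Acadm, Acadl and Acadvl, the thiolase gene Acaa2, the 3-hydroxyacyl-CoA dehydrogenase gene Hadh, the enoyl-CoA isomerase gene Eci1, the fatty acid uptake gene Slc27a1, the lipolysis inhibitor gene G0s2 and the regulator genes Ppara and Ppargc1a. Every probe set whose platform annotation carried 1 gene symbol among these was taken, which gave 12 probe sets of the 12783 with 1 symbol, for 10 of 10411 genes. Total RNA was hybridised to 1 array each from myocytes kept for 48 h with 1 µM PAMH, with 20 µM phenylephrine, or unstimulated. Phenylephrine activates α1-adrenergic receptors and makes cultured cardiac myocytes grow, and PAMH is a compound known here by the submitters' name alone. The doses of the compounds differed, no culture was replicated and with 1 array a group there is no standard error or p-value, so each ratio describes a pair of arrays.

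The adult heart draws most of its energy from fatty acids. They enter the cell through transporters or are released from stored triglyceride, are coupled to coenzyme A, cross the mitochondrial membranes as carnitine esters and are shortened in a repeating cycle of dehydrogenation, hydration, a further dehydrogenation and thiolytic cleavage. The nuclear receptor PPARα, encoded by Ppara, and the coactivator PGC-1α, encoded by Ppargc1a, drive transcription of many of these enzymes, and hearts that enlarge under load are known to shift from fatty acids towards glucose.

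The genes of the pathway did not move as a block. On both treated arrays the signals of Acadm and Acadl were higher than on the unstimulated array, that of Acadvl was nearly the same, and those of Hadh, Acaa2, Eci1 and G0s2 were lower. G0s2 set the compounds apart, with 3.03-fold less signal with phenylephrine and 1.53-fold less with PAMH than in unstimulated cells. The ratios of both compounds share 1 unstimulated array, whose own deviations enter each of them. In RNA from a whole culture, fewer cells of a type and less RNA per cell cannot be told apart.

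The deposited intensities already had nearly equal trimmed means (250.1 on each array, with 2% cut from each end). Signals below are these intensities after a further scaling of the 3 arrays to equal medians. Ratios were taken where neither array was below a floor of 76.0, the signal at percentile 40 of all arrays, and the brightest probe set stood for a gene. Of the 12 probe sets, 9 were at or above the floor on all arrays, and 9 of the 10 genes could be compared. As a yardstick of measurement error, different probe sets for one gene varied in their log2 ratio with an SD of 0.29 for PAMH against unstimulated, 0.27 for phenylephrine against unstimulated and 0.23 for PAMH against phenylephrine, over 867, 864 and 866 genes. It holds no variation between cultures. Cardiac myocyte markers were at or above the floor on every array (15 of 15), whereas 0 of 7 adipocyte markers were on any array. Fibroblast and matrix markers were at or above it for 10 of 12 genes with PAMH, 10 of 12 with phenylephrine and 12 of 12 in unstimulated cells, and their summed signal was 10646 with PAMH, 14136 with phenylephrine and 15344 in unstimulated cells. Over the 15 myocyte markers the summed signal was 145264 with PAMH, 123686 with phenylephrine and 95617 in unstimulated cells. Bright genes weigh most in such a sum, and Nppa alone had 19589, 16987 and 7516. Against unstimulated cells, 13 of the 15 had a log2 ratio above 0 and 2 below with PAMH, and 9 above and 6 below with phenylephrine. Of the 10 matrix markers with a ratio, 6 were at least 1.5-fold lower with PAMH and 1 with phenylephrine, against unstimulated cells. Smooth muscle markers, all 8 at or above the floor on each array, summed to 13789 with PAMH and 16568 with phenylephrine, against 7565 in unstimulated cells. They did not move together. With PAMH 5 had a log2 ratio to unstimulated cells above 0 and 3 below, and with phenylephrine 6 above and 2 below. Endothelial markers were at or above the floor for 0 of 6 genes with PAMH, 2 with phenylephrine and 1 in unstimulated cells, and macrophage markers for 3 of 8, 3 and 2. Their part in the results was not tested.

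Slc27a1 encodes a fatty acid transport protein of the plasma membrane. Its signal was 136.0 with PAMH and 126.6 with phenylephrine, against 167.1 in unstimulated cells. The log2 ratios to unstimulated cells, -0.30 with PAMH and -0.40 with phenylephrine, were 1.03 and 1.49 times the yardstick. Both treated signals thus lay a little below the unstimulated one.

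G0s2 encodes a small protein that blocks adipose triglyceride lipase, the enzyme that starts the breakdown of stored triglyceride. Its signal was 1242 with PAMH and 628 with phenylephrine, against 1905 in unstimulated cells, so the 3 arrays were well separated. The log2 ratio was -0.62 with PAMH and -1.60 with phenylephrine, against unstimulated cells. With phenylephrine G0s2 ranked 7 from the lowest of 6571 genes, and it was the lowest of 657 genes of similar mean signal, when genes were cut into 10 equal classes by that mean. In the direct ratio of PAMH to phenylephrine, at doses that differ, its signal was 1.98-fold higher (log2 ratio 0.98, 4.36 times the yardstick), rank 16 from the highest of 6593 genes.

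The acyl-CoA dehydrogenases take the first step of each cycle, with different preferences for chain length. Acadm, the medium-chain enzyme, had a signal of 1946 with PAMH and 1817 with phenylephrine, against 1143 in unstimulated cells. Acadl, the long-chain enzyme, had 1643 with PAMH and 1519 with phenylephrine, against 1118 in unstimulated cells. Acadvl, the very-long-chain enzyme bound to the inner mitochondrial membrane, had 481 with PAMH and 485 with phenylephrine, against 495 in unstimulated cells. The treated arrays thus lay together and above the unstimulated array for Acadm and Acadl, and all 3 arrays lay together for Acadvl. With PAMH the log2 ratio to unstimulated cells was 0.77 for Acadm, 0.56 for Acadl and -0.04 for Acadvl. With phenylephrine it was 0.67 for Acadm, 0.44 for Acadl and -0.03 for Acadvl.

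Acadm and Acadl are bright probe sets, and bright genes as a whole had higher ratios on the treated arrays. In the brightest of the 10 classes the median log2 ratio was 0.32 with PAMH and 0.24 with phenylephrine. Relative to it Acadm stood at 0.44 with PAMH and 0.43 with phenylephrine, and Acadl at 0.23 and 0.20, below the yardstick. With quantile normalization Acadm had 0.48 and 0.44 and with cyclic loess normalization 0.50 and 0.46, all below 1.5-fold. On the deposited intensities without the further scaling, Acadm with phenylephrine had 0.54 and was also below 1.5-fold.
Hadh and Acaa2, which act later in the cycle, and Eci1, an auxiliary enzyme beside it, went the other way. Hadh, which encodes the dehydrogenase that oxidises 3-hydroxyacyl-CoA of medium and short chains, had a signal of 503 with PAMH and 418 with phenylephrine, against 982 in unstimulated cells. Acaa2, the thiolase that cleaves off acetyl-CoA, had 344 with PAMH and 297 with phenylephrine, against 499 in unstimulated cells. Eci1, the isomerase needed for unsaturated fatty acids, had 632 with PAMH and 617 with phenylephrine, against 920 in unstimulated cells. For each of these genes both treated signals lay below the unstimulated one. Hadh had a log2 ratio of -0.97 with PAMH and -1.23 with phenylephrine. With phenylephrine it was the lowest of the 657 genes in its signal class and rank 22 from the lowest of 6571 genes overall. The log2 ratios of Acaa2 were -0.54 with PAMH and -0.75 with phenylephrine, and those of Eci1 -0.54 and -0.58.

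Second probe sets existed for Hadh and Eci1 only. That of Hadh was below the floor on all arrays, with 5.95 with PAMH and 12.6 with phenylephrine, against 12.9 in unstimulated cells. That of Eci1 was just above the floor with PAMH (85.5) and phenylephrine (80.4) and below it in unstimulated cells (8.53), so no ratio was computed, and its signals were ordered against those of the brighter probe set. The lower signals of Hadh and Eci1 therefore rest on 1 probe set each.

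Ppara had a signal of 10.3 with PAMH and 12.7 with phenylephrine, against 13.1 in unstimulated cells, and gave no ratio because all 3 were below the floor. Ppargc1a had 111 with PAMH and 77.1 with phenylephrine, against 80.4 in unstimulated cells. Its PAMH signal stood above the other signals, which were nearly the same and within a few units of the floor. The log2 ratio of Ppargc1a was 0.47 with PAMH and -0.06 with phenylephrine, against unstimulated cells, and 0.53 for PAMH against phenylephrine, 2.35 times the yardstick. With an offset of 50 added to each signal, which damps ratios of dim probe sets, the last became 0.34.

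**Figure D1:**
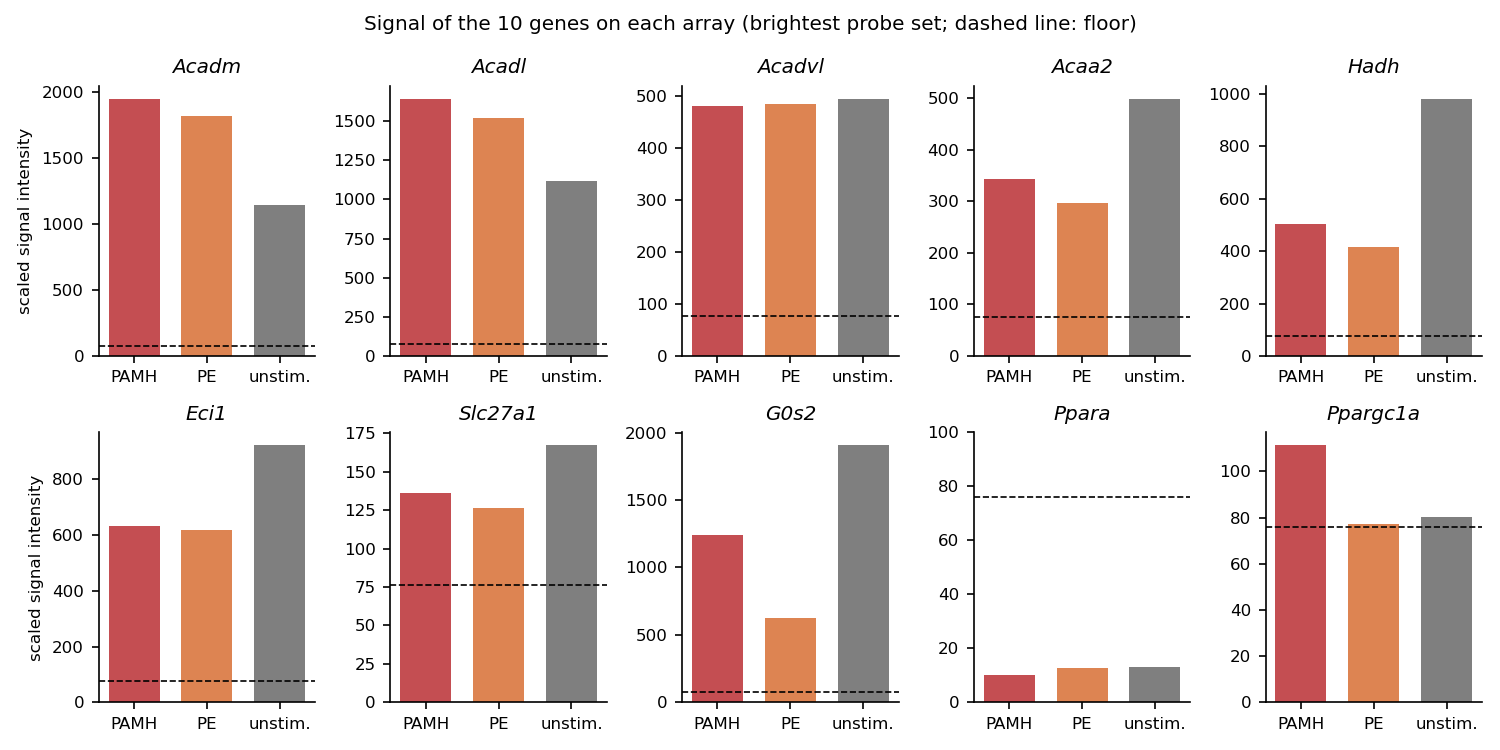
Scaled signal intensity of the 10 genes on each array, from the brightest probe set, with bars for PAMH, phenylephrine (PE) and unstimulated cells (1 array each, no error bars) and a dashed line at the floor of 76.0. Acadm and Acadl were higher on both treated arrays, Hadh, Acaa2, Eci1 and G0s2 lower, and Ppara lay below the floor on all 3.

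Promoter windows of 8 of the 10 genes were found in RefSeq's rat promoter sequences (build GRCr8), and Acadl and Acaa2 had none there. The 250 bases before the annotated start are shown for Acadm, the gene with the highest ratio to unstimulated cells, for Hadh and G0s2, the genes with the lowest, and for Ppargc1a, whose signal stood out with PAMH. Capitals mark matches on either strand to the nuclear receptor motif AGGTCA, the cyclic AMP response element TGACGTCA or the GC box GGGCGG.
Acadm (GRCr8 chr2:245542865-245543114, minus strand): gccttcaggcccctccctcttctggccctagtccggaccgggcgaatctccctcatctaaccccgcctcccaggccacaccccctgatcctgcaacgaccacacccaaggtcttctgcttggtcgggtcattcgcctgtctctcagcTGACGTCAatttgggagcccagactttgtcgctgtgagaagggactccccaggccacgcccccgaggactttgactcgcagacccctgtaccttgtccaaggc
Hadh (GRCr8 chr2:222504447-222504696, minus strand): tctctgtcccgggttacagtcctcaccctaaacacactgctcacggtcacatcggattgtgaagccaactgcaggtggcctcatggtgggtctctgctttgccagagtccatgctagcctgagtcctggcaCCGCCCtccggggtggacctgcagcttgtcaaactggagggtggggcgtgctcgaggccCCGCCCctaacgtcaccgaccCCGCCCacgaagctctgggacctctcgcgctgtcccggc
G0s2 (GRCr8 chr13:107335949-107336198, minus strand): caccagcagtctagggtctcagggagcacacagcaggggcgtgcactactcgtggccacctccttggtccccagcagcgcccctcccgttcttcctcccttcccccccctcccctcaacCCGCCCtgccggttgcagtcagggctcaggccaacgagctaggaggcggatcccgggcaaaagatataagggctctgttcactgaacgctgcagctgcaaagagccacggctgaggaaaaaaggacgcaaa
Ppargc1a (GRCr8 chr14:63634058-63634307, plus strand): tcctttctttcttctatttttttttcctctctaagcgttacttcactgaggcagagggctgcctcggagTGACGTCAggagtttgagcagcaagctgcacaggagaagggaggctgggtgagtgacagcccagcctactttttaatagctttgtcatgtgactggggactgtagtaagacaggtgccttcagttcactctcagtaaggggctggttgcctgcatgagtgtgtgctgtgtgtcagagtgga
The Acadm and Ppargc1a windows each held 1 cyclic AMP response element, which 1.59% of 33469 promoter windows of this length held. The Hadh window held 3 GC boxes and the G0s2 window 1, against 30.5% of all windows with at least 1. Of the windows not shown, those of Ppara (2) and Eci1 (1) also held GC boxes, and none held the cyclic AMP response element. AGGTCA occurred in none of the 4 windows shown, but in those of Acadvl (2 matches), Eci1 (1) and Slc27a1 (1), and in 14.1% of all windows. A direct repeat of AGGTCA with any 1 base between, the arrangement PPARα binds with its partner RXR, occurred in no window of the 8 genes and in 0.0508% of all windows. These matches describe letters in a short window and say nothing on binding.

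The comparison of PAMH with unstimulated cells covered 9 of the 10 genes. At 1.5-fold, 1 was higher (Acadm) and 2 were lower (Hadh and G0s2), where 9.31% of 6549 genes measured were higher and 4.17% lower. None of the 9 was at least 2-fold lower, a share of 0.794% over all genes, and Hadh lay just short of it at 1.95-fold lower. The median log2 ratio of the 9 genes was -0.30, against 0.10 over all genes. Acadl (1.47-fold higher), Eci1 (1.46-fold lower) and Acaa2 (1.45-fold lower) lay just short of 1.5-fold. The count of lower genes became 4, with Eci1 and Acaa2, under 5 alternatives that also raised the share of all genes at least 1.5-fold lower. That share was 7.84% on the deposited intensities without the further scaling, 5.39% with scaling on percentile 75, 5.74% with quantile normalization, 5.54% with cyclic loess normalization and 5.54% when centred within signal classes. Under the same 5 alternatives Hadh was past 2-fold lower, with log2 ratios from -1.15 to -1.03. The share of all genes past 2-fold was not computed for them. The genes were chosen with earlier results of these arrays known, so these shares do not test whether the pathway differs from other genes.

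With phenylephrine, compared with unstimulated cells, 1 of the 9 genes was at least 1.5-fold higher (Acadm) and 3 were lower (G0s2, Hadh and Acaa2), where 8.90% of 6571 genes were higher and 4.54% lower. G0s2 and Hadh (2.35-fold) were at least 2-fold lower, as were 0.761% of all genes. The median log2 ratio was -0.40, against 0.07 over all genes, and Eci1 lay just short of the threshold at 1.49-fold lower. Under the same 5 alternatives Eci1 passed it and the count of lower genes became 4, where 5.35% to 7.83% of all genes were lower. Between the treated arrays, G0s2 was the gene past 1.5-fold of the 9, higher with PAMH than with phenylephrine, where 1.93% of 6593 genes were higher and 2.67% lower. The median log2 ratio of PAMH to phenylephrine was 0.11 over the 9 genes and 0.04 over all genes, and 8 of the 9 had a ratio above 0, as did 56.7% of all genes. Of these 8, only G0s2, Ppargc1a and Hadh (0.27) exceeded the yardstick.

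The split of all genes into higher and lower depended on the scaling. On the deposited intensities without the further scaling, the median of all probe sets was shifted by a log2 ratio of -0.15 on the PAMH array and -0.13 on the phenylephrine array, and the shares at 1.5-fold became 5.33% higher and 7.84% lower with PAMH and 5.98% higher and 7.83% lower with phenylephrine. After quantile normalization they were 6.44% and 5.74% with PAMH and 7.26% and 5.92% with phenylephrine. Ratios given here are relative to that shift. The directions of Acadm, Acadl, Hadh, Acaa2, Eci1, Slc27a1 and G0s2 against unstimulated cells were the same in all 10 alternatives tried.

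**Figure D2:**
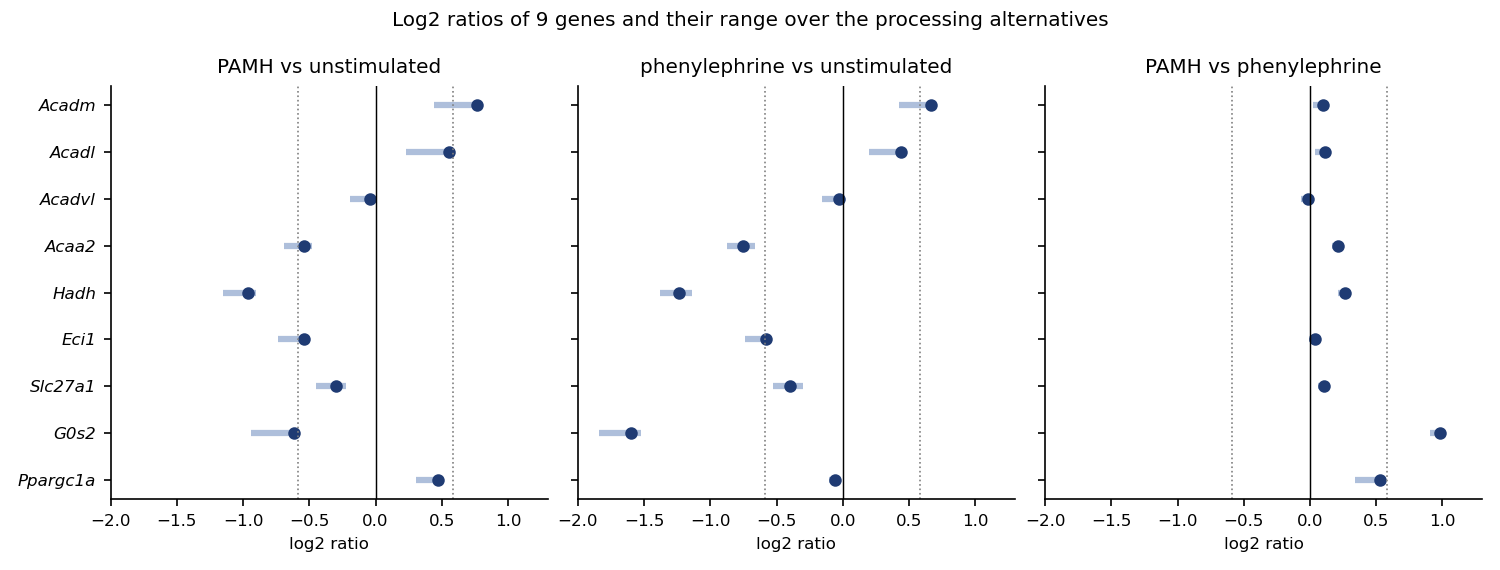
Log2 ratios of the 9 genes with a ratio in each comparison, with points for the values in the text and bars for their range over the processing alternatives; dotted lines mark 1.5-fold. G0s2 lay at 0.98 in the comparison of PAMH with phenylephrine, while the other genes lay between -0.01 and 0.53.

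Set in the order of the pathway, the 22 genes of mitochondrial beta-oxidation and the carnitine shuttle, which include 6 of the 10 genes, gave ratios for 21. With PAMH 2 were at least 1.5-fold higher and 1 lower, with a median log2 ratio of 0.00. With phenylephrine 1 was higher and 2 lower, with a median of 0.06. For PAMH, 9.31% of all genes passed the 1.5-fold threshold upwards and 4.17% downwards. For phenylephrine these shares were 8.90% upwards and 4.54% downwards. The typical gene on the arrays had a log2 ratio of 0.10 for PAMH and 0.07 for phenylephrine (medians). The gene past 1.5-fold that was not yet described was Cpt1b, the muscle form of the carnitine palmitoyltransferase that admits long chains to mitochondria, with a signal of 830 with PAMH and 640 with phenylephrine, against 508 in unstimulated cells. It was 1.63-fold higher with PAMH than in unstimulated cells, and below 1.5-fold under 4 of 10 alternatives. The 15 genes other than the 6 ranged from -0.44 to 0.71 with PAMH and from -0.28 to 0.39 with phenylephrine.

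Some further genes of the pathway are given for their place in it, and were picked after their values were seen. The electron transfer genes Etfa, Etfb and Etfdh, which take up the electrons of the acyl-CoA dehydrogenases, had log2 ratios of 0.42, 0.24 and 0.31 with PAMH and 0.39, 0.12 and 0.32 with phenylephrine, against unstimulated cells. Etfa and Etfb are bright like Acadl, and the brightest signal class had medians of 0.32 with PAMH and 0.24 with phenylephrine. Etfb lay below these medians and Etfa above them. The subunit genes Hadha and Hadhb of the trifunctional protein, which carries out the later steps on long chains, had -0.29 and -0.22 with PAMH and -0.23 and -0.02 with phenylephrine. Eci2, the other isomerase gene, had 0.20 with PAMH and 0.13 with phenylephrine, unlike Eci1. The hydratase gene Echs1 had -0.02 with PAMH and -0.15 with phenylephrine, and the dienoyl reductase gene Decr1 0.00 and 0.03. All of these lay short of 1.5-fold.

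**Figure D3:**
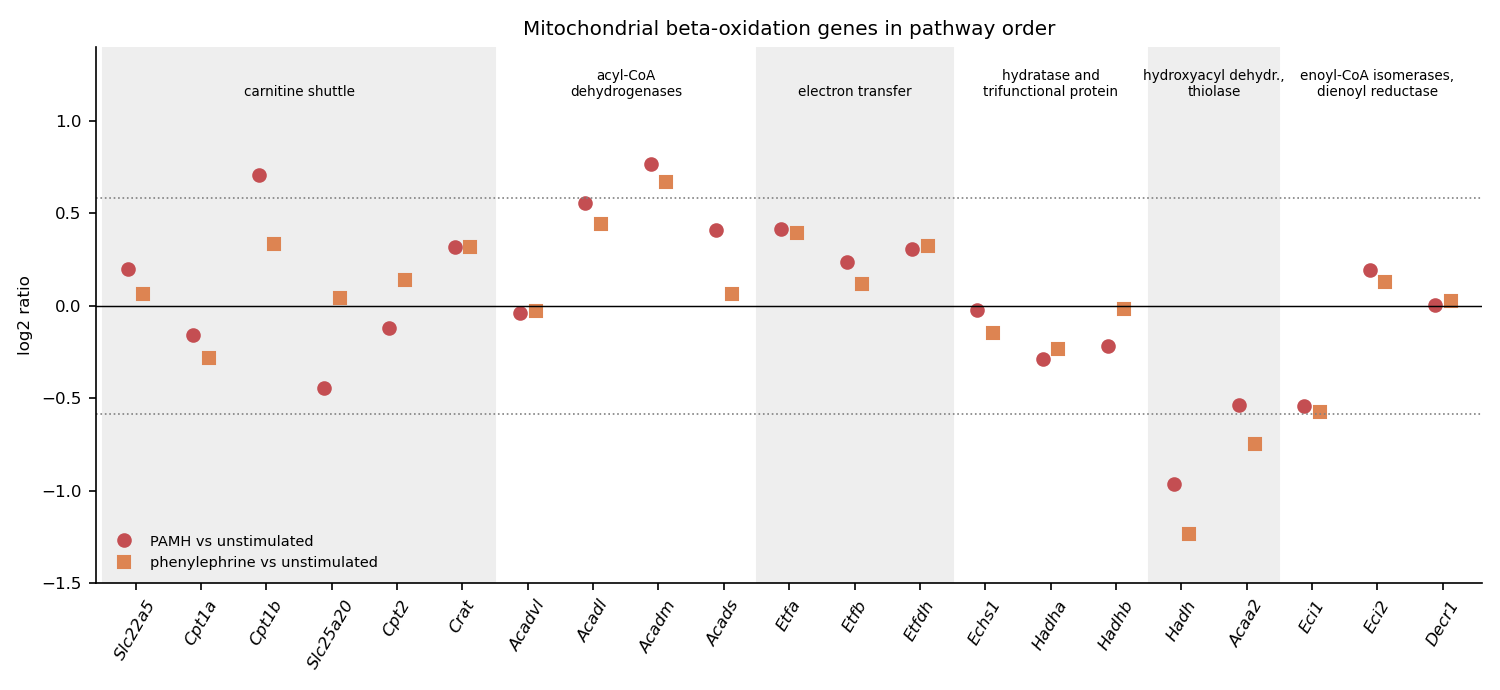
Log2 ratios against unstimulated cells of 21 mitochondrial beta-oxidation genes in pathway order, with circles for PAMH and squares for phenylephrine; dotted lines mark 1.5-fold. Acadm and Acadl lay highest among the dehydrogenase genes, and Hadh, Acaa2 and Eci1 lay lowest of all genes shown.

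Of the peroxisomal genes, 8 of 12 on the array gave a ratio. Their median log2 ratio was -0.25 with PAMH and -0.32 with phenylephrine, against 0.10 and 0.07 over all genes. None was past 1.5-fold with PAMH, where 9.31% of all genes were higher and 4.17% lower. With phenylephrine, where 8.90% of all genes were higher and 4.54% lower, 2 of the 8 were lower than in unstimulated cells. These were Pecr (1.86-fold lower), a peroxisomal enoyl-CoA reductase, and Phyh (1.58-fold lower), the hydroxylase of phytanic acid breakdown, neither of which is an enzyme of the beta-oxidation cycle itself.

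Storage and lipolysis genes were mixed. With PAMH 2 of 12 were at least 1.5-fold higher and 2 lower, and with phenylephrine 3 of 14 were higher and 2 lower, with medians of 0.27 and -0.05. The shares of all genes were 9.31% higher and 4.17% lower with PAMH, and 8.90% and 4.54% with phenylephrine, with medians of 0.10 and 0.07. Besides G0s2, the lower gene was Fitm2, which encodes a membrane protein of lipid droplet formation, with a signal of 137 with PAMH and 107 with phenylephrine, against 252 in unstimulated cells. Plin3, which encodes a coat protein of lipid droplets, had 648 with PAMH and 870 with phenylephrine, against 333 in unstimulated cells, and was thus 1.95-fold and 2.61-fold higher. Agpat2, an acyltransferase of triglyceride synthesis, was 1.94-fold higher with PAMH. With phenylephrine it was 1.64-fold higher, and below 1.5-fold under 2 of 10 alternatives. Cidea, a lipid droplet gene, was 1.71-fold higher with phenylephrine. Pnpla2, the lipase that the G0s2 protein blocks, had 256 with PAMH and 217 with phenylephrine, against 212 in unstimulated cells, log2 ratios of 0.28 and 0.03 that lay within the yardstick.

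Of 14 genes of fatty acid uptake, binding and activation, 3 were at least 1.5-fold higher and 1 lower with PAMH, and 5 were higher and none lower with phenylephrine, with medians of 0.17 and 0.13. Over all genes, 9.31% were higher and 4.17% lower with PAMH, and 8.90% and 4.54% with phenylephrine, with medians of 0.10 and 0.07. Dbi, which encodes the acyl-CoA binding protein, was 1.96-fold higher with PAMH and 1.85-fold with phenylephrine. Dbi is bright, and its log2 ratios of 0.97 and 0.89 fell to as little as 0.63 and 0.61 among the alternatives, still past 1.5-fold. The acyl-CoA synthetase gene Acsl3 was 1.80-fold higher with PAMH and 1.73-fold with phenylephrine. Acsl4, of the same family, was 1.62-fold higher with PAMH and 1.71-fold with phenylephrine, and below 1.5-fold under 4 of 10 alternatives with PAMH. Fabp5, a fatty acid binding protein gene, was 1.77-fold lower with PAMH than with phenylephrine, with a signal of 693 with PAMH and 1226 with phenylephrine, against 1334 in unstimulated cells.

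Among the 16 regulators with a ratio, 2 were higher and 1 lower with PAMH, and 1 was higher and 2 lower with phenylephrine, with medians of 0.26 and 0.04. For comparison, 9.31% of all genes were higher and 4.17% lower with PAMH, and 8.90% and 4.54% with phenylephrine, with medians of 0.10 and 0.07. Klf15, a zinc finger factor that favours fatty acid use in heart muscle, had a signal of 194 with PAMH and 95.5 with phenylephrine, against 206 in unstimulated cells. Like G0s2 it was lowest with phenylephrine, by 2.16-fold against unstimulated cells, and 2.04-fold higher with PAMH than with phenylephrine. With a floor at percentile 50 Klf15 gave no ratio for these 2 comparisons. Rxrg, which encodes a form of the RXR partner of the PPARs, was 1.99-fold lower with PAMH and 2.18-fold lower with phenylephrine. Prkaa2, the catalytic α2 subunit gene of AMP-activated kinase, was 1.69-fold higher with PAMH, and below 1.5-fold under 3 of 10 alternatives. Mef2d, a muscle transcription factor gene, was 1.52-fold higher with each compound, and below that fold under 4 of 10 alternatives with PAMH and 3 of 10 with phenylephrine. On its second probe set the log2 ratio was -0.13 with PAMH and 0.67 with phenylephrine, so the probe sets disagreed for PAMH.

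Of the fatty acid synthesis genes with a ratio, 5 of 13 were at least 1.5-fold higher with PAMH and 6 of 13 with phenylephrine, where 9.31% of all genes were higher with PAMH and 8.90% with phenylephrine. None of the 13 was as much lower. Their median log2 ratios were 0.52 with PAMH and 0.41 with phenylephrine, against 0.10 and 0.07 over all genes and 0.32 and 0.24 in the brightest of the 10 signal classes. That class holds Fasn and Scd2. Scd falls in the next class, with medians of 0.20 and 0.15, and others of the list, such as Elovl6, are dimmer. The fatty acid synthase gene Fasn had a signal of 2141 with PAMH and 1566 with phenylephrine, against 917 in unstimulated cells, and its second probe set had log2 ratios of 0.83 with PAMH and 0.48 with phenylephrine. The stearoyl-CoA desaturase genes Scd and Scd2 were 1.95-fold and 1.82-fold higher with PAMH, and Scd was 2.14-fold higher with phenylephrine. Elovl6, an elongase gene, was 1.69-fold higher with phenylephrine. The other probe sets of Scd2 had log2 ratios of 1.31 and 0.44 with PAMH. Centred within signal classes, the log2 ratios with PAMH were 0.90 for Fasn, 0.77 for Scd and 0.54 for Scd2. Scd2 with PAMH was below 1.5-fold under 3 of 10 alternatives and Fasn with phenylephrine under 2 of 10.

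**Figure D4:**
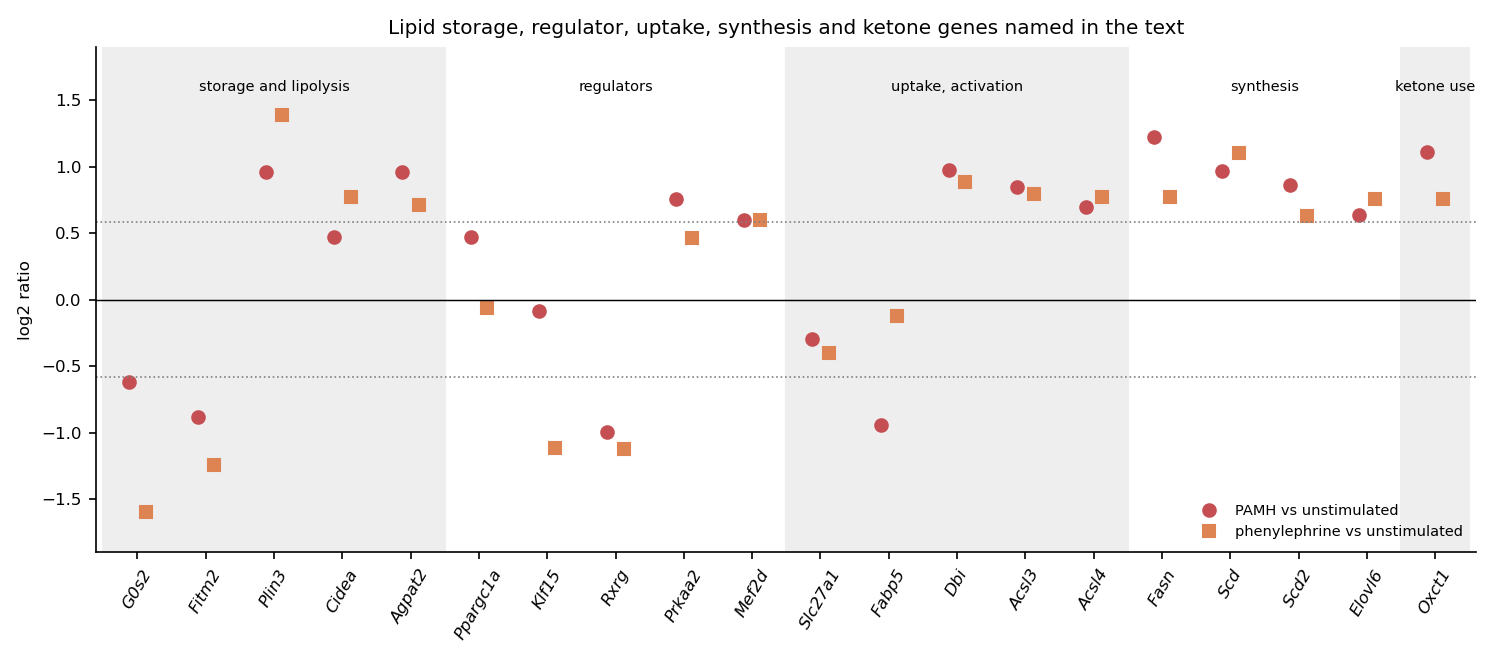
Log2 ratios against unstimulated cells of genes of lipid storage, regulation, uptake, synthesis and ketone use, with circles for PAMH and squares for phenylephrine; dotted lines mark 1.5-fold. G0s2 and Klf15 lay lower with phenylephrine than with PAMH, Fabp5 lower with PAMH, and the synthesis genes shown above 0 with both.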

How the data were processed

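The series has 3 arrays, 1 per group, with groups taken from the sample titles. The authors deposited a linear intensity for each of 15923 probe sets on every array. The software that made them is not given in the sources used here. Of 15866 non-control probe sets, 12783 had 1 gene symbol, 312 several and 2771 none. The RefSeq gene table gave current symbols, by gene identifier, for 12748 of the 12783. Coordinates are given for RefSeq promoter windows alone, because the files name no build.

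The deposited arrays had a common trimmed mean, and each was further multiplied by a factor (1.04 for PAMH, 1.02 for phenylephrine, 0.937 for unstimulated) to equal medians. The floor, the choice of the brightest probe set and the 1.5-fold threshold are as given above. With 1 array per group no test was possible, and precision is limited by the number of arrays. The ratio code was tested on simulated data.

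The 10 genes and all gene lists were chosen with earlier results of these data known. The text names all 10 genes, and of other lists up to 3 genes per direction past 1.5-fold in each comparison, plus Pnpla2, Bdh1 and the further beta-oxidation genes, picked after their values were seen. Alternatives were 4 other normalizations, 3 other floors, an offset, the mean of probe sets and centring within 10 classes of mean signal. Another floor decides only whether a gene has a ratio. The mean of probe sets alters only genes with more than 1 measured probe set. Tallies over the alternatives include these settings, also where they could not change the ratio.

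Python 3.11.15, numpy 2.4.6, pandas 2.3.3, matplotlib 3.10.9, R 4.3.3 and limma 3.58.1 were used.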

Additional observations from a re-analysis of the deposited data

How the results depend on the processing

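No paired analysis was possible because each group has 1 array. Of the recomputed counts and medians, 108 stayed within 1.5 times the count or 1 yardstick and 12 moved. With PAMH against unstimulated cells, the count of genes at least 1.5-fold higher was 0 with quantile normalization, with cyclic loess normalization and when centred within signal classes, in place of 1. The count of lower genes was 4 in place of 2 on deposited values without the further scaling, with scaling on percentile 75, with quantile normalization, with cyclic loess normalization and when centred within signal classes, settings under which 5.39% to 7.84% of all genes were lower, against 4.17%. Under the 3 settings that took the count of higher genes to 0, 6.17% to 6.44% of all genes were higher, against 9.31%. With phenylephrine against unstimulated cells, the count of higher genes was 0 in place of 1 on deposited values, with quantile normalization, with cyclic loess normalization and when centred within signal classes, where 5.98% to 7.30% of all genes were higher, against 8.90%. Its count of lower genes was 4 in place of 3 under the 5 settings that gave 4 with PAMH. The changing gene was Acadm in the counts of higher genes, Eci1 and Acaa2 in those of lower genes with PAMH, and Eci1 in those with phenylephrine. Over settings that measured the same 9 genes, their median log2 ratio ranged from -0.45 to -0.22 with PAMH and from -0.44 to -0.30 with phenylephrine. With phenylephrine it was -0.62 over 8 genes on deposited values, without Ppargc1a, and -0.23 over 10 genes with no floor, including Ppara. Of the recomputed ratios of single genes, 601 stayed within the yardstick and 20 moved by more, and none past 1.5-fold changed sign. Among the 9 genes, Eci1 in PAMH against phenylephrine changed sign under 1 alternative, near 0. Ppara and Ppargc1a, below or near the floor, are limited by signal over background, and Ppargc1a gave no ratio with a floor at percentile 50, nor in the comparisons with phenylephrine on deposited values. The causes of these shifts were not tested.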

Other observations

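Genes of ketone body use and of branched-chain acyl-CoA breakdown gave 7 ratios to unstimulated cells with each compound, of which 1 reached 1.5-fold, upwards. Over all genes 9.31% were as much higher with PAMH and 8.90% with phenylephrine. The gene of the list was Oxct1, the transferase that activates ketone bodies, with a signal of 2508 with PAMH and 1958 with phenylephrine, against 1160 in unstimulated cells. It was below 1.5-fold with phenylephrine under 3 of 10 alternatives. Bdh1, the dehydrogenase of 3-hydroxybutyrate, had 231 with PAMH and 198 with phenylephrine, against 57.2 in unstimulated cells, which is below the floor, and its second probe set had 189 with PAMH and 183 with phenylephrine, against 63.5 in unstimulated cells. Bdh1 was named after its values were seen. The median of the list was 0.20 with PAMH and -0.22 with phenylephrine, against 0.10 and 0.07 over all genes.

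A list of genes known as PPAR targets gave 14 ratios, with medians of 0.33 with PAMH and 0.25 with phenylephrine, and with each compound 3 were higher by 1.5-fold or more, while no gene was as much lower. Over all genes, 9.31% were higher and 4.17% lower with PAMH and 8.90% higher and 4.54% lower with phenylephrine, with medians of 0.10 and 0.07. In the brightest of the 10 signal classes, which holds Acadm and Acadl, the medians were 0.32 and 0.24. Other genes of the list are dimmer, and the medians of their classes were lower. The class of Acadvl had medians of 0.14 and 0.10, and that of Slc27a1 0.01 and -0.04. The list includes Acadm, Acadl, Acadvl and Slc27a1, which are among the 10 genes. With PAMH the higher genes were Ucp2, an uncoupling protein gene (1.71-fold), Acadm and Cpt1b, with Acadm below 1.5-fold under 3 and Cpt1b under 4 of 10 alternatives. With phenylephrine they were Ucp2 (2.03-fold), Acadm and Ucp3 (log2 ratio 0.59), with Acadm below 1.5-fold under 4 of 10 and Ucp3 under 3 of 9 alternatives.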
